A study of Macaca mulatta with 30 samples.

Results

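The genes described here are 9 transcription regulators that mark or specify the neurons of the deep layers of the cerebral cortex. They are the teashirt zinc finger proteins TSHZ2 and TSHZ3, the nuclear receptor NR4A2, the ETS factor ETV1, the zinc finger proteins FEZF2 and BCL11B, the corepressor TLE4, the T-box factor TBR1 and the SRY-box factor SOX5. Each gene was read from the probe sets whose single annotated gene symbol was that gene, taking the brightest by its mean over 30 arrays. Of the 9 genes, 7 had such a probe set among the 40489 on the array, and each of the 7 had 1, out of 15534 genes named in this way. These were 13610484 for TSHZ2, 13699639 for TSHZ3, 13633680 for NR4A2, 13704516 for FEZF2, 13785782 for BCL11B, 13629742 for TBR1 and 13623762 for SOX5. ETV1 and TLE4 were not named by the platform annotation and were not analysed here. All 7 measured genes lay above the filter on dim probe sets, a mean over the 30 arrays of 6.04 log2, which left 24292 probe sets for testing. BCL11B lay nearest to it, with a mean of 6.95.

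The study measured gene expression in frozen post-mortem cortex of 5 rhesus macaques (Macaca mulatta) to compare the hemispheres. Each animal gave 3 regions from the left and the right side, so 30 arrays fell into 6 groups of 5, with 1 array per animal in each. VFC is ventrolateral prefrontal cortex at the arcuate sulcus, taken as the counterpart of part of Broca's area, and STC is posterior superior temporal cortex, taken as that of Wernicke's area. M1C is the forelimb part of primary motor cortex. Animals 1, 2 and 3 were females of 7.3, 5.5 and 8.6 years, and animals 4 and 5 were males of 4.2 and 2 years. No animal was treated or carried an engineered allele according to the labels, and sex and age cannot be told apart from animal. Values are log2 intensities of bulk tissue, in which fewer cells of a type and less RNA per cell cannot be told apart, and the number of animals limits the precision.

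Deep-layer projection neurons of layers 5 and 6 send axons out of the cortex, to the thalamus, brainstem and spinal cord, or to other cortical areas. In mouse cortex, FEZF2 promotes the subcerebral fate and acts upstream of BCL11B, while TBR1 promotes the corticothalamic fate and represses FEZF2, and SOX5 times the production of the successive deep-layer types. These genes stay on in adult neurons and are used as layer markers. Primary motor cortex differs from the other regions by its very large layer 5 neurons and its thin layer 4.

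Some arrays stood apart from their labels. Deviations from the group means, correlated over the tested probe sets, placed 28 of 30 arrays nearest to the other arrays of their own animal. The exceptions were the arrays labelled M1C left of animal 3, which was nearest to animal 4, and STC right of animal 4, which was nearest to animal 3. The Y-linked gene EIF1AY read 8.34 on the first and 7.25 on the second, against 6.82 to 7.70 in female animals 1 and 2 and 8.30 to 8.53 in male animal 5. On an axis scaled from M1C at 0 to STC at 1, the array labelled M1C left of animal 3 had a position of 0.836. The array labelled STC right of animal 4 had one of -0.056. Results are therefore given with the 30 arrays as labelled and without these 2. Both lay nearer the other region on this axis, so a wider STC minus M1C difference without them follows partly from their choice. The settings without arrays are thus no independent test of that difference. Results are also given without 4, which adds STC right of animal 3 (EIF1AY 7.87) and VFC left of animal 4 (8.29). An earlier look at these data had set this pair apart. Both lay nearest to their own animal, at positions of 0.587 and 0.655, so calls found only without the 4 rest on that earlier choice. M1C left of animal 5 had 0.545 on the same axis, was nearest to its own animal and was kept.

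**Figure D1:**
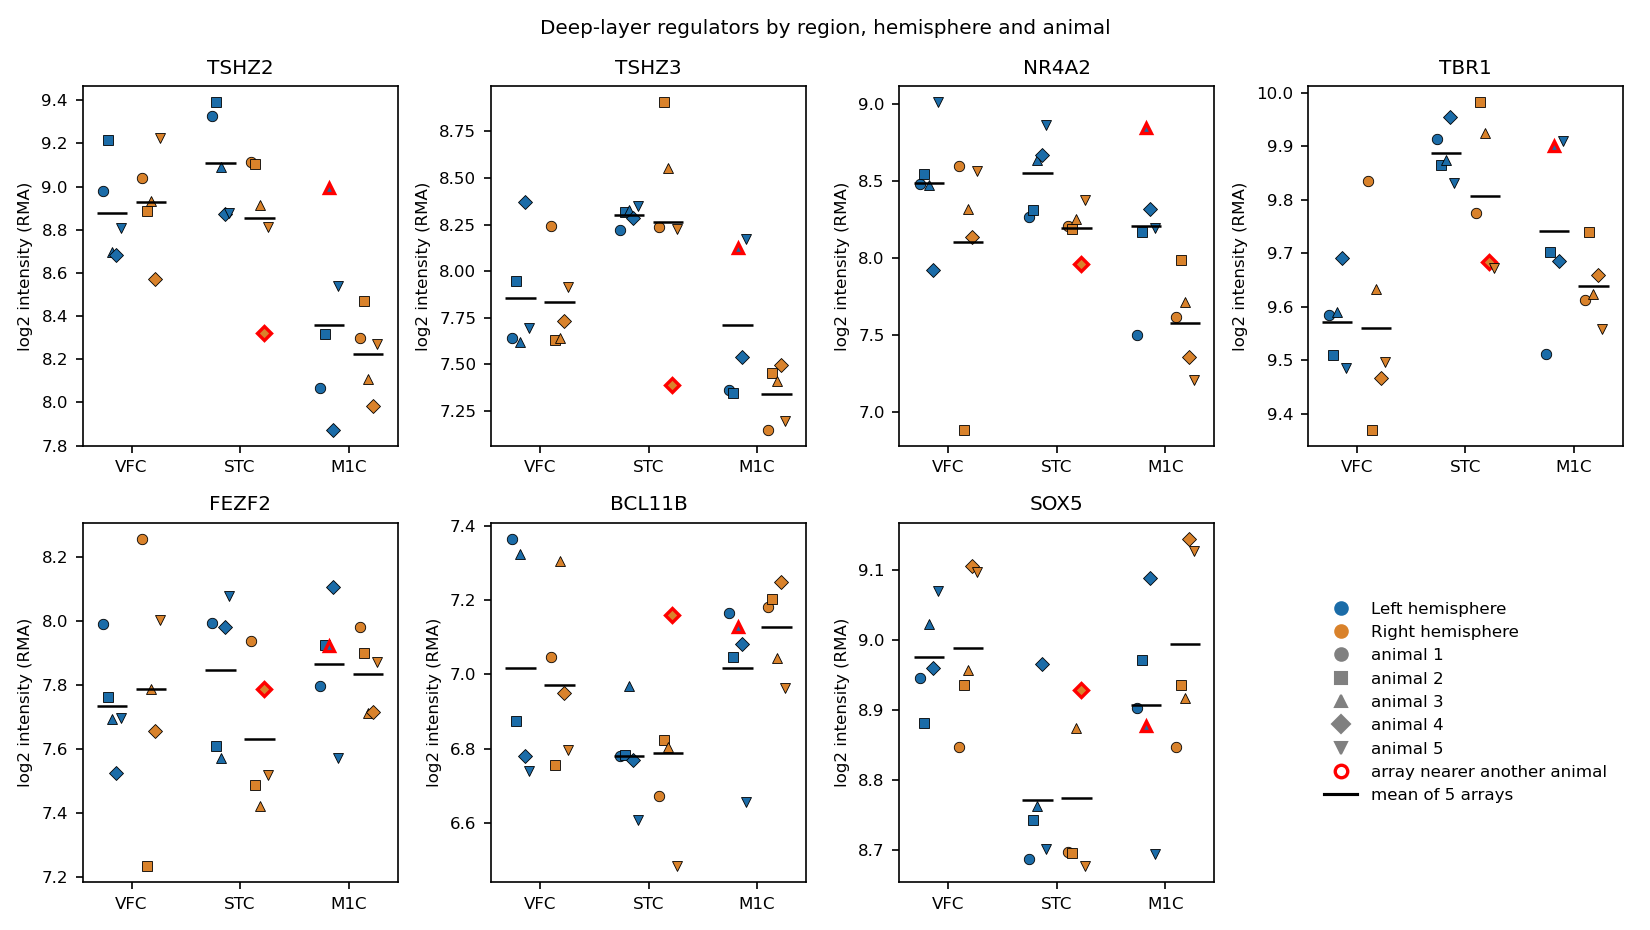
Log2 intensity (vertical axis, 1 panel per gene with its own range) of the 7 measured genes on 30 arrays by region (horizontal axis), with colour for hemisphere, shape for animal and a bar for the mean of 5 arrays. Red outlines mark the 2 arrays nearer another animal, on which TSHZ2 read 8.995 (M1C left of animal 3) and 8.32 (STC right of animal 4).

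TSHZ2 and TSHZ3 were the members called between regions on the 30 arrays as labelled, both with lower levels in motor cortex than in superior temporal cortex. Both encode zinc finger proteins with a homeobox. In mouse cortex TSHZ2 marks near-projecting neurons of layer 5, and TSHZ3 is expressed by deep-layer projection neurons. TSHZ2 read 8.57 to 9.22 log2 on the 10 VFC arrays (median 8.91), 8.32 to 9.39 on the 10 STC arrays (median 9.003) and 7.87 to 8.995 on the 10 M1C arrays (median 8.29). Its lowest STC array and its highest M1C array were the 2 nearer another animal, and without them all VFC and STC arrays lay above all M1C arrays, whose highest value was then 8.54.

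Averaged over hemispheres, TSHZ2 had levels of 9.01, 9.05, 8.81, 8.63 and 9.02 in VFC of animals 1 to 5. The same animals had 9.22, 9.25, 9.003, 8.60 and 8.84 in STC, and 8.18, 8.39, 8.55, 7.93 and 8.41 in M1C. Every animal had less TSHZ2 signal in M1C than in either other region. The same sign in 5 of 5 animals was found for 20.8% of tested probe sets in VFC minus M1C. It was found for 19.9% in STC minus M1C and 12.6% in VFC minus STC, and such counts below are to be read beside these shares. The VFC minus M1C difference was 0.61 ± 0.085 log2 (moderated SE, n = 5 animals), 1.53-fold higher in VFC in 5 of 5 animals, with a limma adjusted p of 0.00217. In this comparison limma called 10.5% of the tested probe sets, and TSHZ2 was 1 of 7 measured members called. The STC minus M1C difference was 0.69 ± 0.085 (1.61-fold, 5 of 5 animals, limma adjusted p = 0.0114), the fourth smallest p of 24292 probe sets. Here limma called 2.36% of probe sets, and TSHZ2 and TSHZ3 were the 2 of 7 members called. VFC and STC did not differ detectably in TSHZ2, at -0.08 ± 0.085 (95% interval -0.26 to 0.11, limma adjusted p = 0.76).

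TSHZ3 read 7.62 to 8.37 log2 in VFC (median 7.71), 7.39 to 8.91 in STC (median 8.30) and 7.15 to 8.17 in M1C (median 7.43). All 5 left STC arrays lay within 8.22 to 8.35, while the right STC arrays spread from 7.39 to 8.91. The 7.39 was the array labelled STC right of animal 4. By animal, TSHZ3 levels were 8.23, 8.61, 8.44, 7.84 and 8.29 in STC and 7.26, 7.40, 7.77, 7.52 and 7.68 in M1C, so that STC was higher in all 5. STC minus M1C was 0.75 ± 0.137 log2 (1.69-fold, limma adjusted p = 0.021), the largest difference of any member between regions. VFC, with 7.94, 7.79, 7.63, 8.05 and 7.81, lay between the 2, but neither VFC minus M1C (0.32 ± 0.137, 4 of 5 animals, limma adjusted p = 0.176) nor VFC minus STC (-0.44 ± 0.137, lower in 4 of 5, adjusted p = 0.178) passed the test.

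The arrays that stood apart from their labels bore on these values. Without the 2 arrays, TSHZ2 was 0.70 higher in VFC and 0.83 higher in STC than in M1C (limma adjusted p = 0.000124 and 0.00018). TSHZ3 was then 0.92 higher in STC than in M1C (adjusted p = 0.000251), 0.39 higher in VFC than in M1C (0.016) and lower in VFC than in STC, at -0.53 (0.0351), so that its 3 regions were ordered STC, VFC, M1C. On 28 arrays no TSHZ2 value of VFC overlapped M1C, where 0.959% of tested probe sets do not overlap, and no TSHZ2 or TSHZ3 value of STC overlapped M1C, where 0.877% do not. As labelled, no member had regions free of overlap, with backgrounds of 0.148% for VFC and M1C, 0.00412% for STC and M1C and 0.0206% for VFC and STC. Single animals also mattered for STC and M1C. Leaving out animal 1 gave limma adjusted p values of 0.0833 for TSHZ2 and 0.12 for TSHZ3, leaving out animal 2 gave 0.0684 and 0.113, and leaving out animal 5 gave 0.0601 for TSHZ3. Over all alternatives TSHZ2 STC minus M1C stayed between 0.60 and 0.85 log2 and TSHZ3 between 0.64 and 0.92, while their adjusted p ranged from 0.00018 to 0.0833 and from 0.000245 to 0.12.

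NR4A2, also called NURR1, is an orphan nuclear receptor needed by midbrain dopamine neurons, a marker of the deepest cortical neurons and of the claustrum, and an activity-induced gene. Its range over the 30 arrays was the widest among the members, 2.12 log2. Its levels were 6.89 to 9.01 in VFC (median 8.48), 7.96 to 8.86 in STC (median 8.29) and 7.21 to 8.85 in M1C (median 7.85). By animal, VFC had 8.54, 7.72, 8.40, 8.03 and 8.79, STC had 8.24, 8.25, 8.44, 8.31 and 8.62, and M1C had 7.56, 8.08, 8.28, 7.84 and 7.70. STC lay above M1C in all 5 animals and VFC above M1C in all but animal 2.

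These NR4A2 differences did not pass the test as labelled, at 0.48 ± 0.165 for STC minus M1C (limma adjusted p = 0.136) and 0.40 ± 0.165 for VFC minus M1C (0.152). On 28 arrays STC minus M1C was 0.67 (limma adjusted p = 0.0219; over all alternatives 0.017 to 0.316). Without the 4 arrays it was 0.70 (0.017), and VFC minus M1C passed as well, at 0.54 (0.0469; over all alternatives 0.0469 to 0.444). VFC minus STC was -0.08 ± 0.165, with a 95% interval from -0.44 to 0.28.

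TBR1, the T-box factor of layer 6 corticothalamic neurons, had its highest levels in STC. It read 9.37 to 9.83 log2 in VFC (median 9.55), 9.67 to 9.98 in STC (median 9.87) and 9.51 to 9.91 in M1C (median 9.67). By animal, TBR1 levels were 9.71, 9.44, 9.61, 9.58 and 9.49 in VFC, against 9.85, 9.92, 9.90, 9.82 and 9.75 in STC. VFC was lower than STC in each animal. The difference of -0.28 ± 0.058 log2 had a limma adjusted p of 0.0691, where limma called 0.214% of probe sets and 0 of 7 members (4 members at an unadjusted p under 0.05, as had 13.4% of probe sets). M1C, with 9.56, 9.72, 9.76, 9.67 and 9.73, lay between, at 0.16 ± 0.058 for STC minus M1C (higher in 5 of 5, limma adjusted p = 0.164) and -0.12 ± 0.058 for VFC minus M1C (lower in 4 of 5, 0.217).

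TBR1 was 1 of the members whose call turned on the arrays left out. On 28 arrays VFC minus STC was -0.31 (limma adjusted p = 0.0452) and STC minus M1C 0.21 (0.0398), and both passed. Without the 4 arrays STC minus M1C was 0.21 with an adjusted p of 0.0579 and VFC minus STC was -0.33 with 0.0393. Over all alternatives the adjusted p of TBR1 VFC minus STC ran from 0.00782 to 0.266 and that of STC minus M1C from 0.0398 to 0.337.

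SOX5 and BCL11B had their lowest levels in STC. SOX5, which in mouse delays the appearance of later deep-layer types, read 8.85 to 9.11 log2 in VFC (median 8.96), 8.68 to 8.97 in STC (median 8.72) and 8.69 to 9.15 in M1C (median 8.93). By animal, SOX5 levels in STC were 8.69, 8.72, 8.82, 8.95 and 8.69, against 8.87, 8.95, 8.90, 9.12 and 8.91 in M1C. VFC had 8.90, 8.91, 8.99, 9.03 and 9.08. STC was thus the lowest region for SOX5 in every animal. The STC minus M1C difference was -0.18 ± 0.047 log2 (lower in 5 of 5, limma adjusted p = 0.0697) and VFC minus STC was 0.21 ± 0.047 (higher in 5 of 5, 0.089). VFC and M1C differed by 0.03 ± 0.047, with an interval from -0.07 to 0.13.

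BCL11B, also called CTIP2, is a zinc finger repressor needed for corticospinal axon outgrowth in mouse. It read 6.74 to 7.36 log2 in VFC (median 6.91), 6.48 to 7.16 in STC (median 6.78) and 6.66 to 7.25 in M1C (median 7.11). By animal, BCL11B levels in STC were 6.73, 6.80, 6.89, 6.96 and 6.55, against 7.17, 7.13, 7.09, 7.17 and 6.81 in M1C, lower in STC in each. STC minus M1C was -0.29 ± 0.081 (1.22-fold lower in STC, limma adjusted p = 0.0817). The highest STC value, 7.16, was on the array labelled STC right of animal 4, and the lowest M1C value, 6.66, on M1C left of animal 5. VFC minus STC was 0.21 ± 0.081 (higher in 4 of 5 animals, limma adjusted p = 0.278) and VFC minus M1C -0.08 ± 0.081 (0.614).

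Without the 2 arrays both genes passed in STC minus M1C, BCL11B at -0.32 (limma adjusted p = 0.0192) and SOX5 at -0.18 (0.0299). Without the 4 arrays they were at -0.30 (0.0231) and -0.19 (0.0174), and SOX5 also passed in VFC minus STC, at 0.23 (0.0341). Over all alternatives the adjusted p of STC minus M1C ran from 0.0192 to 0.323 for BCL11B and from 0.0174 to 0.271 for SOX5, with every value below 0.

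FEZF2, the zinc finger factor that specifies subcerebral projection neurons, showed no regional difference past the test in any setting. It read 7.23 to 8.26 log2 in VFC (median 7.73), 7.42 to 8.08 in STC (median 7.70) and 7.57 to 8.11 in M1C (median 7.88), and the 3 ranges overlapped over most of their width. VFC minus M1C was -0.09 ± 0.091 (95% interval -0.29 to 0.11) and STC minus M1C was -0.11 ± 0.091 (-0.31 to 0.09), with limma adjusted p values of 0.603 and 0.552. VFC minus STC was 0.02 ± 0.091 (-0.18 to 0.22).

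**Figure D2:**
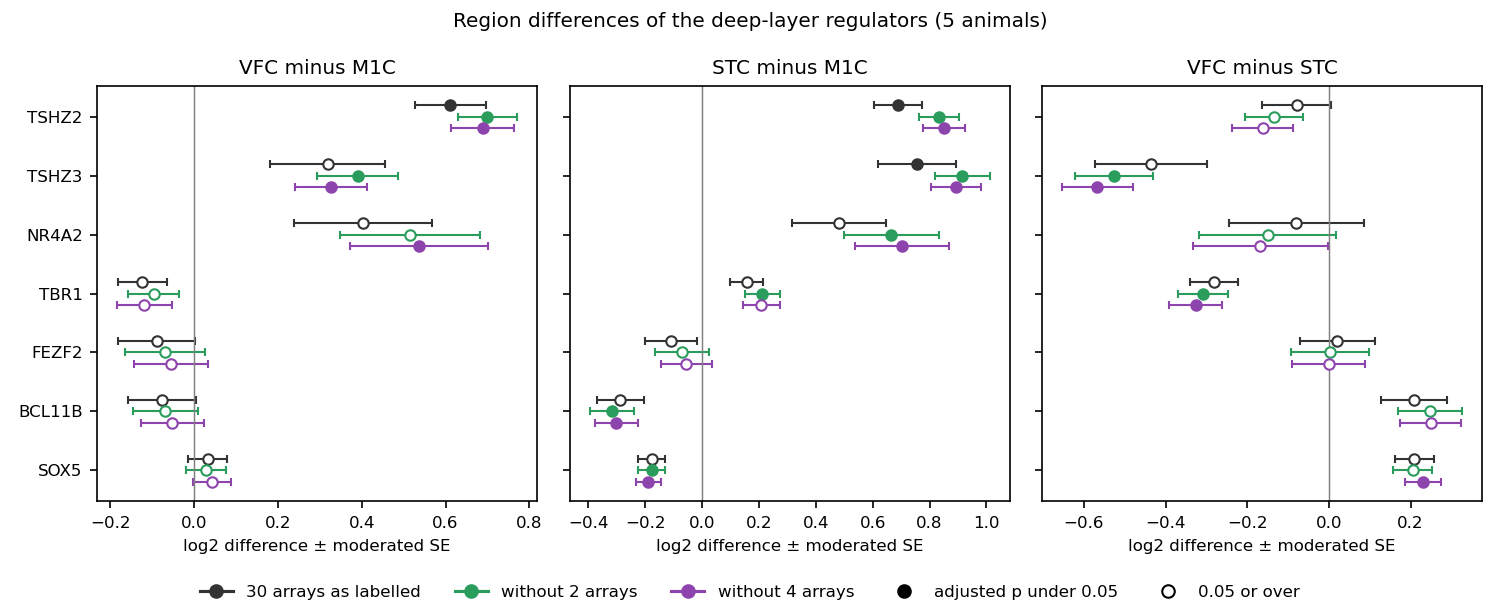
Log2 differences between regions (horizontal axis) with moderated standard errors over 5 animals for 7 genes (rows), in 3 panels for VFC minus M1C, STC minus M1C and VFC minus STC. Black is the 30 arrays as labelled, green without 2 arrays and purple without 4, and filled points have a limma adjusted p under 0.05: TSHZ2 is filled in every setting of the first 2 panels, while FEZF2 is open throughout.

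The count of members called thus depended on which arrays were read. In STC minus M1C it was 2 of 7 as labelled (2.36% of all tested probe sets called), 6 of 7 without the 2 arrays (12.6%) and 5 of 7 without the 4 (12%). Of the 6, TSHZ2, TSHZ3, NR4A2 and TBR1 were higher in STC (5.96% of probe sets called higher), and BCL11B and SOX5 were lower (6.63% called lower). In VFC minus M1C the counts were 1 (10.5%), 2 (14.7%) and 3 (15%), with TSHZ3 and then NR4A2 joining TSHZ2, each with a positive difference. In VFC minus STC they were 0 (0.214%), 2 (0.655%) and 3 (1.1%), with TSHZ3 and TBR1 lower and SOX5 higher in VFC. The median of the 7 members was 0.16 log2 in STC minus M1C, beside 0.0047 over all tested probe sets, and 0.03 beside 0.0028 in VFC minus M1C. The members did not move one way, so these medians average over opposite signs.

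Other genes of deep-layer neurons and further lists were read for comparison. As labelled, limma called 5.19% of all tested probe sets higher and 5.32% lower in VFC minus M1C. The shares were 1.22% and 1.14% in STC minus M1C, and 0.148% and 0.0659% in VFC minus STC. Each list count as labelled from here on is to be read beside them. Without the 2 arrays the shares were 7.17% higher and 7.58% lower in VFC minus M1C. They were then 5.96% and 6.63% in STC minus M1C, and 0.465% and 0.189% in VFC minus STC. List counts on 28 arrays are to be read beside these. Of 28 listed markers of these layers 20 were tested, and as labelled 3 were higher in VFC than in M1C and none lower: CRYM, a thyroid hormone binding crystallin (0.39 ± 0.079 log2, limma adjusted p = 0.00966), the cadherin CDH13 (0.22 ± 0.053, 0.0204) and RXFP1, the relaxin receptor (0.34 ± 0.10, 0.0492). Without the 2 arrays 5 were higher and 1 lower, the serotonin receptor HTR1F (-0.28, limma adjusted p = 0.0407). In STC minus M1C, RXFP1 (0.57 ± 0.10, limma adjusted p = 0.019) and the zinc finger cofactor ZFPM2 (0.34 ± 0.078, 0.0424) were the 2 called, both higher in STC, and 7 were called higher without the 2 arrays. In VFC minus STC limma called 0 of the 20 (7 at an unadjusted p under 0.05, as had 13.4% of probe sets). There SEMA3E (-0.75 ± 0.15, limma adjusted p = 0.0635) and HTR1F (-0.40 ± 0.086, 0.0738) had the smallest p. SEMA3E read 5.06 to 7.26 over all arrays, so its lowest level lay below the filter level of 6.04. Without the 2 arrays 1 marker was called higher and 3 lower. The list's medians were 0.04, 0.13 and -0.03 in VFC minus M1C, STC minus M1C and VFC minus STC.

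Of 10 tested paralogs of the members, 1 was called between regions as labelled. This was BCL11A, higher in STC than in M1C by 0.31 ± 0.066 log2 (limma adjusted p = 0.0349), while its relative BCL11B had a negative difference in that comparison. TSHZ1, the teashirt family's other member, had 0.24 ± 0.079 in STC minus M1C (adjusted p = 0.123). In VFC minus M1C limma called 0 (2 at an unadjusted p under 0.05, as had 24.3% of probe sets). There TLE1, a relative of the unmeasured TLE4, had 0.23 ± 0.075 (limma adjusted p = 0.079) and NR4A3 0.26 ± 0.088 (0.0854). In VFC minus STC limma called 0 (2 at an unadjusted p under 0.05, as had 13.4% of probe sets). BCL11A had -0.25 ± 0.066 (limma adjusted p = 0.124) and TSHZ1 -0.17 ± 0.079 (0.363). More paralogs were called on the 28 arrays that kept to their animal. BCL11A (0.40, limma adjusted p = 0.000547), TSHZ1 (0.31, 0.0098) and TLE1 (0.30, 0.0205) were then higher in STC than in M1C, TLE1 was higher in VFC than in M1C (0.26, 0.0344), and BCL11A was lower in VFC than in STC (-0.30, 0.026).

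Regulators of upper layers and factors that act with the members, 2 overlapping lists, gave a few calls as labelled. Of 8 tested upper-layer genes, MDGA1 (0.34 ± 0.063, limma adjusted p = 0.0072) and LHX2 (0.17 ± 0.048, 0.0445) were higher in VFC than in M1C. RORB, the nuclear receptor of layer 4, was higher in STC than in M1C (0.53 ± 0.12, adjusted p = 0.0484). LMO3 was higher in VFC than in STC (0.32 ± 0.055, 0.0405). The upper-layer calls on 28 arrays were 5 higher in VFC minus M1C, 4 higher and 2 lower in STC minus M1C, and 1 higher and 1 lower in VFC minus STC.

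Of 17 tested partners in deep-layer specification, NEUROD6 (0.40 ± 0.097, limma adjusted p = 0.0222) and LHX2 were higher and NFIA (-0.24 ± 0.053, 0.0146) and CHD4 (-0.16 ± 0.043, 0.0387) lower in VFC than in M1C. In STC minus M1C limma called 0 as labelled (4 at an unadjusted p under 0.05, as had 19.4% of probe sets). There LMO4 read -0.19 ± 0.056 (limma adjusted p = 0.0935) and NFIA -0.16 ± 0.053 (0.119). In VFC minus STC limma called 0 (5 at an unadjusted p under 0.05, as had 13.4% of probe sets). LMO4 read 0.23 ± 0.056 (limma adjusted p = 0.0966) and NEUROD6 0.36 ± 0.097 (0.131). On 28 arrays 4 partners were higher and 2 lower in VFC than in M1C. Between STC and M1C, AUTS2 (0.21, limma adjusted p = 0.00752) and NFIB (0.23, 0.0437) were then higher, and LMO4 (-0.22, 0.0188) and NFIA (-0.19, 0.0273) lower.

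Markers of other cells moved with the same comparisons. Each of 13 tested genes of oligodendrocytes and myelin had a negative, called difference in VFC minus M1C (median -0.88 log2), with the smallest p for CNDP1 (-1.66), UGT8 (-1.12), ERMN (-1.24) and ASPA (-0.82). The mean level of the list ran from 7.84 to 9.14 over the VFC arrays, against 8.80 to 9.82 over the M1C arrays. In STC minus M1C 1 of the 13 was lower as labelled (CNDP1, -0.94) and 9 without the 2 arrays (medians -0.38 and -0.54). Of 7 tested genes of large projection neurons, 6 were lower and 1 higher in VFC than in M1C, led by the potassium channels KCNC1 (-0.77) and KCNA1 (-0.85) and the synaptic vesicle genes VAMP1 (-1.19) and SYT2 (-1.57). These 4 genes were lower in STC than in M1C as labelled, and 6 of the list without the 2 arrays.

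Of 7 tested genes of the claustrum and insula, where NR4A2 is also a marker, 3 were higher in VFC than in M1C and none lower (median 0.20): SYNPR (0.70), GNB4 (0.52) and NR2F2 (0.29). SYNPR was higher in STC than in M1C (0.50) as labelled, and 4 were higher and 1 lower there without the 2 arrays. The mean level of this list ran from 7.95 to 8.24 over the VFC arrays and from 7.82 to 8.10 over the STC arrays, against 7.63 to 8.15 over the M1C arrays. Of 10 tested interneuron genes, PVALB was lower (-0.93) and SST higher (0.36) in VFC than in M1C, and SST was higher in STC than in M1C (0.44).

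Of 8 tested excitatory neuron genes, a list that holds TBR1, SLC30A3 (0.31), NEUROD6 (0.40) and CAMK2A (0.14) were higher in VFC than in M1C. Limma called 0 of them in STC minus M1C as labelled (4 at an unadjusted p under 0.05, as had 19.4% of probe sets). On 28 arrays it called 2, the vesicular glutamate transporter SLC17A6 (0.85, adjusted p = 0.00432) and TBR1. Of 9 astrocyte genes, FGFR3 (-0.25) and GLUL (-0.22) were lower in VFC than in M1C, and both were lower in STC than in M1C. Of 8 vascular genes, FLT1 (-0.20), SLC2A1 (-0.22) and ABCB1 (-0.19) were lower in VFC than in M1C, and ABCB1 (-0.33) and SLC2A1 (-0.23) were lower in STC than in M1C. Of 6 meningeal genes, DCN (0.49), OGN (0.84) and SLC13A4 (0.71) were higher in VFC than in M1C. OLIG1, of 5 tested genes of oligodendrocyte precursors, was lower (-0.31) and JUN, of 14 activity-induced genes, was higher (0.22) in VFC than in M1C. Limma called 0 of 6 microglial genes there (2 at an unadjusted p under 0.05, as had 24.3% of probe sets). P2RY12 was at 0.20 and CSF1R at 0.19. The levels of the excitatory neuron genes differed, with CAMK2A at 12.37 to 12.67 and NRGN at 10.85 to 11.29 over all arrays. SLC17A6 read 6.70 to 8.55 and NEUROD2 7.08 to 7.74, nearer the filter level of 6.04. Of the other deep-layer markers, SEMA3E (5.06 to 7.26) and ADRA2A (5.94 to 7.15) reached below that level. The part of these cell markers in the members' differences was not tested.

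The hemispheres were compared within each animal, and no member passed. Limma called 0 of 24292 probe sets over all regions, 0% (1608 at an unadjusted p under 0.05), and 0 in VFC, STC or M1C (869, 1133 and 1367). The same 0 calls held without the 2 and without the 4 arrays. NR4A2 had the smallest p among the members over all regions, in VFC and in M1C. Within STC, TSHZ2 (limma unadjusted p = 0.0734) and FEZF2 (0.0751) had smaller ones than NR4A2 (0.13).

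NR4A2 read 7.92 to 9.01 log2 on left VFC arrays, against 6.89 to 8.60 on right ones. In STC the left arrays had 8.27, 8.31, 8.64, 8.67 and 8.86 for animals 1 to 5, against 8.21, 8.19, 8.25, 7.96 and 8.38 on the right, higher on the left in each animal. In M1C the left arrays had 7.50, 8.17, 8.85, 8.32 and 8.20, against 7.62, 7.99, 7.72, 7.36 and 7.21 on the right, higher on the left in all but animal 1. Averaged over regions, left minus right for NR4A2 was -0.06, 0.66, 0.56, 0.48 and 0.64 in animals 1 to 5.

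The mean of these NR4A2 differences was 0.46 ± 0.095 log2 (1.37-fold, higher on the left in 4 of 5 animals), with an unadjusted p of 0.00116, rank 65 of 24292, and a limma adjusted p of 0.421. It was the only member of 7 at an unadjusted p under 0.05, where 6.62% of tested probe sets lay. On 28 arrays it was 0.38 (adjusted p = 0.783) and without the 4 it was 0.47 (0.902). Leaving out animal 1 gave 0.58 with an adjusted p of 0.0469, the sole setting in which NR4A2 passed, and over all alternatives the adjusted p ran from 0.0469 to 1. By region, NR4A2 left minus right was 0.39 ± 0.220 in VFC, 0.35 ± 0.220 in STC and 0.63 ± 0.220 in M1C (limma adjusted p = 1, 0.999 and 0.8). In VFC, animal 2 had a right array of 6.89 and a difference of 1.66, and leaving this animal out gave 0.07. The test of whether the 3 regional differences of NR4A2 were equal gave F = 0.47 (limma adjusted p = 0.995).

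**Figure D3:**
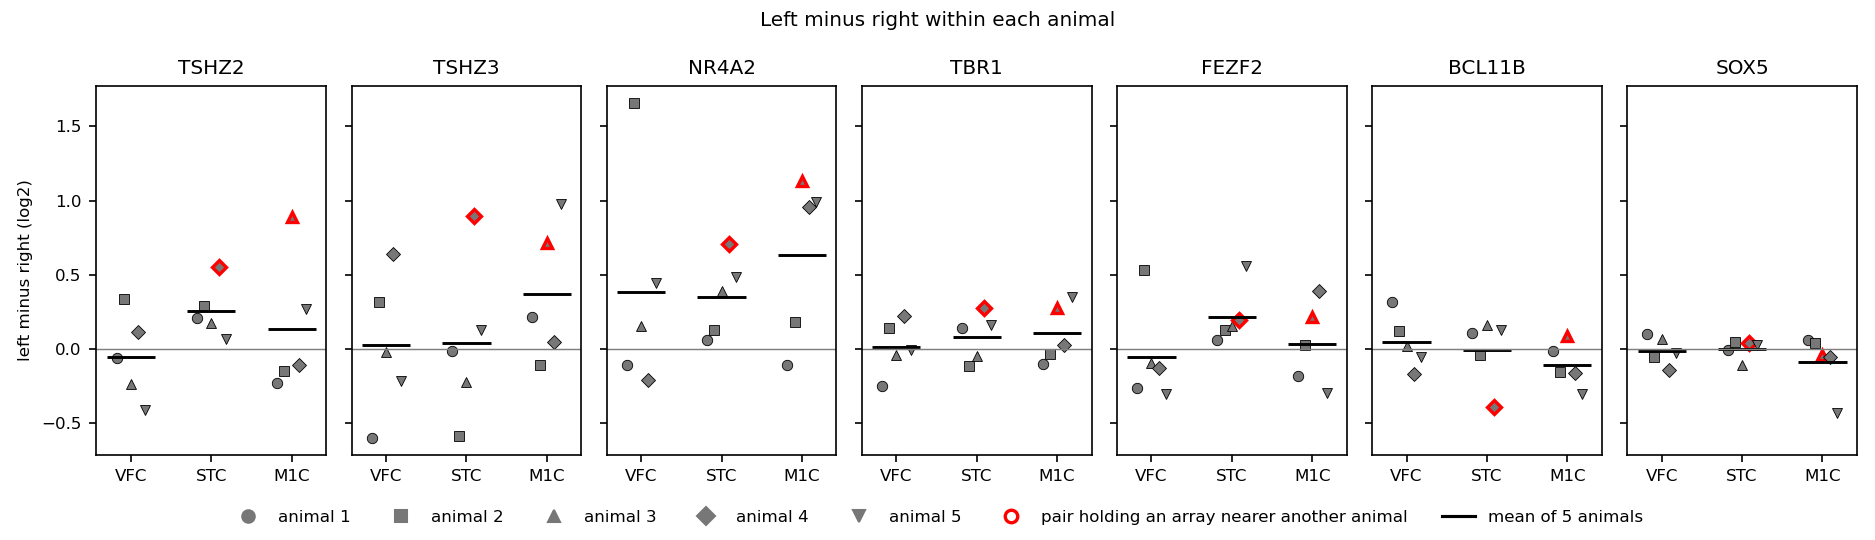
Left minus right log2 difference (vertical axis, shared by all panels) of 7 genes in VFC, STC and M1C (horizontal axis), 1 point per animal by shape, with bars for the mean of 5 animals. Red outlines mark pairs that hold an array nearer another animal; NR4A2 averages 0.39, 0.35 and 0.63 in the 3 regions, and the highest mean of the other genes is 0.37, for TSHZ3 in M1C.

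The other 6 members had intervals that held 0. Over all regions, left minus right was 0.11 ± 0.052 log2 for TSHZ2 (95% interval -0.01 to 0.23), 0.14 ± 0.092 for TSHZ3 (-0.07 to 0.35) and 0.07 ± 0.045 for TBR1 (-0.04 to 0.17). FEZF2 had 0.06 ± 0.053 (-0.06 to 0.19), BCL11B -0.02 ± 0.055 (-0.15 to 0.10) and SOX5 -0.03 ± 0.039 (-0.12 to 0.05). For these 6 genes a left to right difference over all regions beyond 0.353 log2 lay outside every interval as labelled. This bound does not hold by region, where the interval of TSHZ3 in M1C reached 0.78. Within STC, TSHZ2 (0.26 ± 0.134) and FEZF2 (0.22 ± 0.114) had left values above right ones in each of the 5 animals, with a limma adjusted p of 0.999 for both. Within M1C, TSHZ3 had 0.37 ± 0.195 (left above right in 4 of 5 animals, 95% interval -0.05 to 0.78, limma adjusted p = 0.872), about the size of the NR4A2 differences in VFC and STC. The value of TSHZ2 in animal 4 rested on the array labelled STC right of animal 4, and without the 2 arrays TSHZ2 in STC was 0.18. Without the 4 arrays TSHZ2 over all regions was -0.05 and TSHZ3 0.01. The interaction of hemisphere with region was called for 0 of 24292 probe sets by limma (912, or 3.75%, at an unadjusted p under 0.05, none of them a member).

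Of the activity-induced genes, which share rapid induction with NR4A2, 14 were tested and limma called 0 left against right. At an unadjusted p under 0.05 there were 2, as had 6.62% of tested probe sets. EGR2 (0.17 ± 0.036, unadjusted p = 0.00104, limma adjusted p = 0.421) and FOS (0.11 ± 0.040, 0.0231 and 0.691) had the smallest p. The paralogs NR4A1 and NR4A3, also activity-induced, had left minus right differences of -0.04 ± 0.040 and 0.05 ± 0.039. The list's median was 0.02, beside 0.0033 over all tested probe sets. Of the 20 other deep-layer markers limma called 0, with 9 at an unadjusted p under 0.05, beside 6.62% of tested probe sets. The median of these markers was 0.08 (0.05 without the 2 arrays). RPRM (0.26 ± 0.068) and HS3ST4 (0.15 ± 0.042) had the smallest p over all regions, with limma adjusted p values of 0.522 and 0.523.

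Other cell markers were also read between the sides, with 0 called by limma in each list. Of all tested probe sets, 6.62% lay at an unadjusted p under 0.05 over all regions and 4.66% within STC. Over all regions, 4 of 7 claustrum and insula genes lay at an unadjusted p under 0.05 (median 0.11 log2, and 0.06 without the 2 arrays). So did 5 of 7 genes of large projection neurons (median -0.12, and 0.0017 without the 2 arrays), 4 of 8 vascular genes (-0.09 and -0.06) and 4 of 10 interneuron genes (0.0063 and -0.01). Within STC, 4 of 6 meningeal genes lay at an unadjusted p under 0.05, with a median of -0.62 (-0.63 without the 2 arrays). The part of these cells in the NR4A2 difference was not tested.

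What the variation of each member went with was described by shares of its sum of squares over the 30 arrays. Region held 56.5% for TSHZ2, 49.0% for TBR1, 48.6% for TSHZ3, 42.0% for SOX5, 27.9% for BCL11B, 18.5% for NR4A2 and 4.52% for FEZF2, beside a median of 8.73% over tested probe sets. Hemisphere held 21.6% for NR4A2 and at most 3.90% for the other 6, beside a median of 1.30%. Animal held 34.5% for BCL11B, 27.7% for FEZF2 and 25.1% for SOX5, and 2.07% for TSHZ3, beside a median of 22.9%. BCL11B had its lowest mean, 6.71, in animal 5, the youngest, and 6.91 to 7.10 in the other animals. SOX5 had its highest mean, 9.03, in animal 4.

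The members fell into opposite directions over the arrays. With each animal's mean subtracted, TSHZ3 went with TSHZ2 (Pearson r = 0.74 over 30 arrays) and with TBR1 (0.70), and BCL11B with SOX5 (0.67). TSHZ3 ran against BCL11B (-0.74) and SOX5 (-0.70), and TBR1 against SOX5 (-0.71). Of the 21 pairs 11 had a positive r, and FEZF2 had no r beyond 0.45 in size with any member. In mouse FEZF2 acts upstream of BCL11B, and here that pair had r = 0.39. The arrays share animals, regions and processing, so these values are descriptions. They changed little without the 2 arrays, where TSHZ2 and TSHZ3 had 0.75 and TSHZ3 and BCL11B -0.74.

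**Figure D4:**
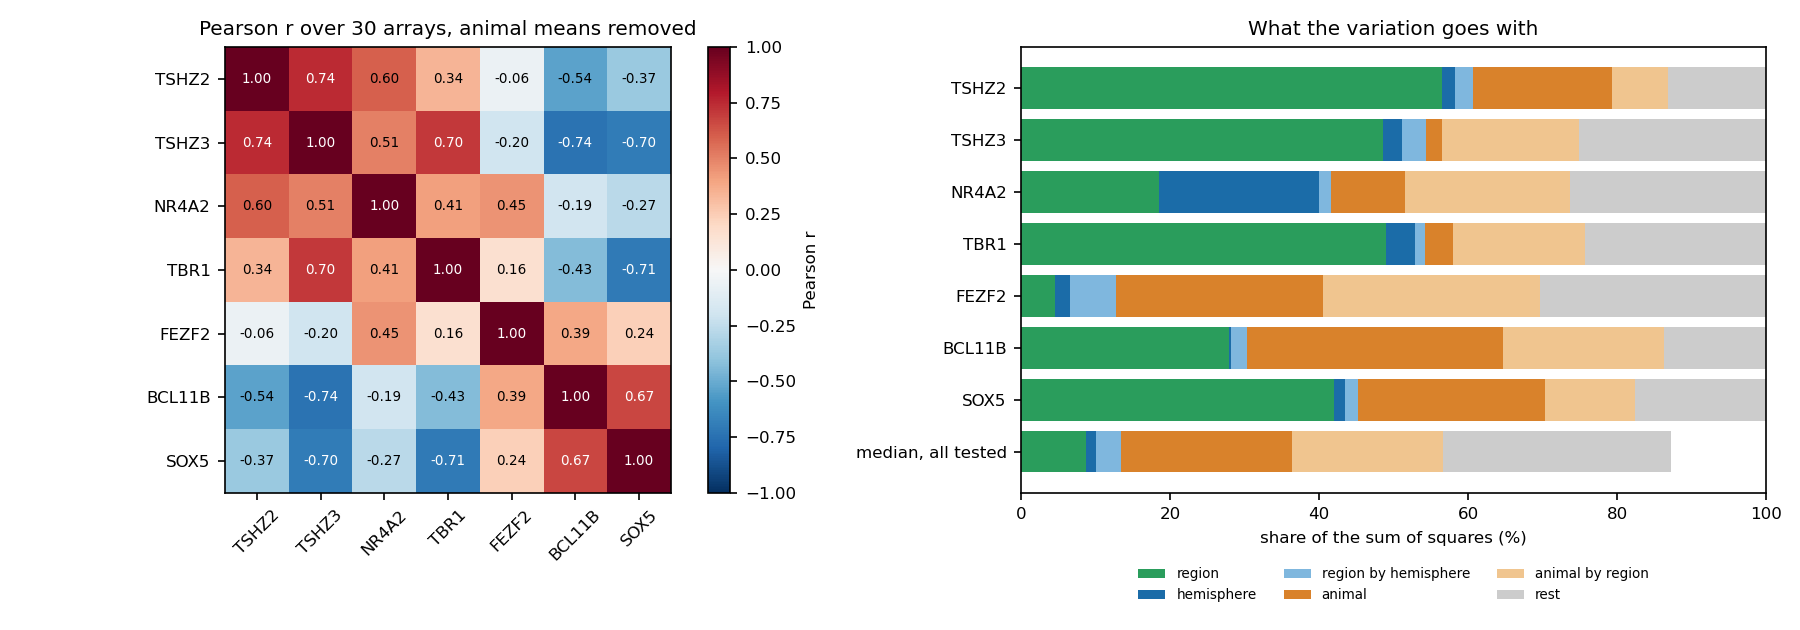
Left, Pearson r between 7 genes over 30 arrays after subtraction of animal means (colour scale from -1 to 1). Right, share of each gene's sum of squares (horizontal axis, percent) by source, with medians over all tested probe sets in the last row, which need not sum to 100; TSHZ2 has 56.5% with region, NR4A2 21.6% with hemisphere and FEZF2 4.52% with region.

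The genes most like each member were found by the same r among 11029 named genes. For TSHZ2 they were CAMK2D (0.91), FAM163B (0.91) and PTCHD1 (0.91), and for TSHZ3 RORB (0.93), NCALD (0.93) and ZFPM2 (0.91). For NR4A2 they were SEMA3A (0.85), NPTX1 (0.81) and RXFP1 (0.79), which kept ranks 1 to 3 without the 2 and without the 4 arrays. TBR1 was most like DEPTOR (0.87), ACTR1B (0.87) and SLC7A8 (0.85), and SOX5 most like LMO4 (0.89), SPHKAP (0.82) and RASGRP1 (0.81). BCL11B was most like NRP1, PODXL and FKBP1B (0.80, 0.80 and 0.79), and FEZF2 most like GALNT14, IGSF21 and SLC35F1 (0.76, 0.74 and 0.73). The highest r was lowest for FEZF2, the member with the smallest share of regional variation. The median r over all genes compared lay between -0.024 and 0.035 for the 7 members.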

How the data were processed

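The deposited values are log2 intensities, 1 per probe set and array. They come from RMA in the oligo package, per the submitters' processing notes; versions, the genome build and whether the arrays were normalized with others are not given in the sources used here, so no coordinates are given. Gene names came from the platform annotation, which gives 16020 of 40489 probe sets 1 symbol, 490 several and does not list 23979.

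Differences were tested on the 24292 probe sets whose mean lay above the 40th percentile, by limma (version 3.58.1, run under R 4.3.3 with the data.table package, version 1.17.8). Regions were compared on 15 hemisphere averages with animal as block (8 residual degrees of freedom). Left minus right was fitted on within-animal differences (12 degrees of freedom by region, 4 over all regions). The titles give each animal's number, which pairs its samples. P-values were two-sided and adjusted by Benjamini-Hochberg over all tested probe sets, with a threshold of 0.05. Where an array was left out, its region kept the other hemisphere's value and its left to right pair was dropped. On simulated data the VFC minus M1C fit recovered 93% of changes of 0.5 log2 and 100% of 1 log2, with 6 unchanged probe sets called. The left minus right fit over all regions recovered 92% and 99%, with 14 unchanged probe sets called, and the fits by region were not simulated.

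Members and gene lists were chosen with earlier results of these data known. From each other list and region comparison the rule names up to 4 called genes with the smallest p, or 2 where none was called. For lists of other cell types the text gives them for VFC minus M1C. Genes called after arrays were left out, TSHZ1, NR4A1, NR4A3, NRGN, NEUROD2, ADRA2A and those given for the hemispheres were chosen after their values were seen. For each member it names the 3 genes with the highest r. No sequences are printed.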

Additional observations from a re-analysis of the deposited data

Results flagged for a closer look

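Single arrays or animals stood apart from the others of their group in 7 of 91 sets of 5 values, where the gap to the nearest value exceeded Dixon's critical share of the range (0.71). Chance gives about 1 such set in 20. NR4A2 read 6.89 log2 on the right VFC array of animal 2, against 8.14 to 8.60 in the other animals. The left minus right difference of NR4A2 over all regions was -0.056 in animal 1, against 0.48 to 0.66 in the others. That of FEZF2 was 0.53 in VFC of animal 2, against -0.31 to -0.096, and 0.56 in STC of animal 5, against 0.056 to 0.19. BCL11B read 6.66 on the left M1C array of animal 5, against 7.05 to 7.16. SOX5 read 8.97 on the left STC array of animal 4, against 8.69 to 8.76, and its left minus right difference in M1C was -0.43 in animal 5, against -0.057 to 0.056. None of the 7 values that stood apart was itself read on the 2 arrays that lay nearer another animal, but 4 of the sets hold values from them: the NR4A2 average, FEZF2 in STC, and BCL11B and SOX5 in M1C.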

How the results depend on the processing

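TSHZ2 kept its VFC minus M1C call under every alternative run (0.56 to 0.70 log2, limma adjusted p 0.000124 to 0.0225). The alternative of averaging a member's probe sets was not run because each measured member has 1, and BCL11B is not above the 60th percentile. The causes of the changes below were not tested.

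Without a filter limma called 1676 probe sets in VFC minus M1C, 123 in STC minus M1C and 15 in VFC minus STC, and 1 member in STC minus M1C (TSHZ3 had adjusted p = 0.0542). Above the 60th percentile, VFC minus STC gave 139 and 1 member (TBR1), and left minus right in VFC 1 probe set. Centring arrays on their medians gave 1 probe set in left minus right over all regions, which was not a member. A variance trend gave 876 in STC minus M1C and 120 in VFC minus STC, with 1 member there (TBR1). With animal as random block over 30 arrays there were 1229 and 347, and 4 and 2 members.

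The animal number gave the pairing. With no replicate block, limma called 833 probe sets in VFC minus M1C, 0 in STC minus M1C (2820 at an unadjusted p under 0.05) and 14 in VFC minus STC. TSHZ2 and TSHZ3 in STC minus M1C then had adjusted p = 0.0604 and 0.0519, so 0 members were called there.

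Without the 2 arrays there were 3057 calls in STC minus M1C and 159 in VFC minus STC, with 2, 6 and 2 members in the 3 region comparisons. Without the 4 there were 2904 and 266, with 3, 5 and 3 members. Leaving out each animal gave 999 to 2272 calls in VFC minus M1C, 2 to 427 in STC minus M1C (0 to 2 members), 1 to 82 in VFC minus STC (0 to 1 member), and 0 to 1 in left minus right over all regions (0 to 1 member) and in VFC.

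The signs that turned belonged to differences that passed no test. Without the 2 arrays they were, for left minus right, TSHZ3 in STC (-0.18), BCL11B in STC (0.088), TSHZ2 in M1C (-0.057) and FEZF2 in M1C (-0.017). Without the 4 arrays these were -0.16, 0.063, -0.057 and -0.017, joined by TSHZ2 over all regions (-0.049), TSHZ3 (-0.13), TBR1 (-0.041) and SOX5 (0.021) in VFC, SOX5 in STC (0.021) and FEZF2 in VFC minus STC (-0.00048). Leaving out each animal in turn gave, for region differences, -0.0033 to 0.061 for SOX5 in VFC minus M1C, -0.17 to 0.035 for NR4A2 in VFC minus STC and -0.035 to 0.10 for FEZF2 in VFC minus STC. For left minus right it gave BCL11B -0.065 to 0.030 over all regions. In VFC it gave TSHZ2 -0.15 to 0.038, TSHZ3 -0.13 to 0.18, FEZF2 -0.20 to 0.0090, BCL11B -0.023 to 0.099, TBR1 -0.041 to 0.077 and SOX5 -0.040 to 0.021. In STC it gave TSHZ3 -0.18 to 0.20, BCL11B -0.050 to 0.088 and SOX5 -0.015 to 0.025, and in M1C TSHZ2 -0.057 to 0.22 and FEZF2 -0.062 to 0.11.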
